A study of Mus musculus with 2 samples.

Results

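The nuclear-encoded subunits of the 5 complexes of oxidative phosphorylation were examined in ScxGFP-positive and ScxGFP-negative cells of the mouse embryonic forelimb. Members were taken by symbol alone, as every gene whose symbol starts with *Nduf* followed by a, b, c, s or v and a digit (complex I), is *Sdha* to *Sdhd* (complex II), starts with *Uqcr* (complex III), with *Cox4* to *Cox8* (complex IV) or with *Atp5* (complex V). This rule found 85 of 22096 symbols, with 94 of 28107 transcript rows. Of the 85 symbols 37 fell in complex I, 4 in complex II, 8 in complex III, 19 in complex IV and 17 in complex V. The rule used no measured value. It also matches *Ndufa4l2* and *Cox4nb*, a neighbour of *Cox4i1*, which are not known as subunits, and *Atp5s*, *Atp5sl* and *Cox7a2l*, which are not core subunits. RefSeq now names *Atp5sl* as *Dmac2* and *Atp5s* as *Dmac2l*, so both are counted in complex V by their older symbol alone.

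RNA was sequenced from forelimb cells of mixed-strain mouse embryos at E13.5, sorted by flow cytometry for green fluorescence. The populations compared were ScxGFP-positive and ScxGFP-negative; the reporter reads out regulatory sequence of *Scx*, the gene of the tendon transcription factor scleraxis, so it marks cells by that promoter's activity. Each population gave 1 library from a pool of 6 forelimbs (3 pairs), and both shared tissue, age and strain background. With 1 library per population there were no replicates, no test and no error between animals, and each value below describes these 2 libraries.

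Oxidative phosphorylation passes electrons from NADH through complex I, or from succinate through complex II, by way of ubiquinone, complex III and cytochrome c to complex IV, which reduces oxygen. Complexes I, III and IV pump protons across the inner mitochondrial membrane, and complex V, ATP synthase, uses the gradient to make ATP. All complexes except complex II mix nuclear-encoded subunits with subunits encoded in mitochondrial DNA, so the nuclear genes have to be expressed in step with the mitochondrial genome. NRF1, the ETS factor GABPA and YY1 are transcription factors known to bind promoters of many of these genes.

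Because the members are known for shared promoter elements, the letters of 3 motifs were searched on both strands of RefSeq promoter windows (build GRCm38.p6, 250 bases before to 50 after the start): GCGCATGC for NRF1, CCGGAAGT for ETS factors and AAGATGGC for YY1. All 85 members matched a RefSeq gene by accession, and 69 of them had 75 windows. The NRF1 letters were in 13.3% of the members' windows, against 5.1% of windows of the other measured genes and 2.7% of all 32851 windows. The ETS letters were in 6.7% of the members' windows, against 7.9% of the other measured genes' and 3.9% of all. The YY1 letters were in 16% of the members' windows, against 4.4% of the other measured genes' and 2.7% of all. These 12 windows were of 11 members, as overlapping windows of *Atp5sl* share a match. At least 1 of the 3 was in 26 of the 75 windows (34.7%), from 25 members, against 16.2% of the other measured genes' windows. A match here is a string of letters, not a bound site. The windows printed are those of *Uqcrc1* and *Uqcr11*, complex III members with NRF1 letters, of *Cox8a*, an abundant complex IV member with the ETS letters, and, with no match, of *Cox6b2*, which was over 2-fold lower in positive cells, and *Ndufa5*, the 1 measured member that was higher on the FPKM scale. Motif letters on either strand are in capitals; in *Uqcrc1* the capitals join 2 overlapping NRF1 matches, 1 on each strand. *Uqcr11* has both the ETS and the NRF1 letters.
*Uqcrc1* (chr9:108936398-108936697, plus strand): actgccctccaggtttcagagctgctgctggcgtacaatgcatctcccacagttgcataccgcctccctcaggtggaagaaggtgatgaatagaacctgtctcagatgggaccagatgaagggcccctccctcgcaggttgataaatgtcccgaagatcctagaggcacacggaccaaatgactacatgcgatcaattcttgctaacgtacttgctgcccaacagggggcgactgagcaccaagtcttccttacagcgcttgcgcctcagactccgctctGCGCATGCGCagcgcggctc
*Uqcr11* (chr10:80406772-80407071, minus strand): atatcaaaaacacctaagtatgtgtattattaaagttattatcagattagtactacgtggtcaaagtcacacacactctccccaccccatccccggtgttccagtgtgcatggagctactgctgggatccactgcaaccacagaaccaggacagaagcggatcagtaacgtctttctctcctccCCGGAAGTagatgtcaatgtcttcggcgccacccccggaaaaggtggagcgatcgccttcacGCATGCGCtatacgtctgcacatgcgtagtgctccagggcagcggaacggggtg
*Cox8a* (chr19:7217567-7217866, minus strand): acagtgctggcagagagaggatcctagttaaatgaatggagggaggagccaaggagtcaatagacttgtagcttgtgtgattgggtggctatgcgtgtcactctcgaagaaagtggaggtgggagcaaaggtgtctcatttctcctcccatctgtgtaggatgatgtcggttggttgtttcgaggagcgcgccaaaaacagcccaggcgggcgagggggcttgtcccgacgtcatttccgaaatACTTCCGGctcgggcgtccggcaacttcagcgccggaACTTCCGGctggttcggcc
*Cox6b2* (chr7:4753045-4753344, minus strand): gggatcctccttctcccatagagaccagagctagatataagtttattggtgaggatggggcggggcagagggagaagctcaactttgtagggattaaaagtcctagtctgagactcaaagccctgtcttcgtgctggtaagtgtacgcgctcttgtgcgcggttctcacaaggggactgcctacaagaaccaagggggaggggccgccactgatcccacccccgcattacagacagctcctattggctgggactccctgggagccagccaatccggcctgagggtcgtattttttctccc
*Ndufa5* (chr6:24527477-24527776, minus strand; the first of its 2 windows): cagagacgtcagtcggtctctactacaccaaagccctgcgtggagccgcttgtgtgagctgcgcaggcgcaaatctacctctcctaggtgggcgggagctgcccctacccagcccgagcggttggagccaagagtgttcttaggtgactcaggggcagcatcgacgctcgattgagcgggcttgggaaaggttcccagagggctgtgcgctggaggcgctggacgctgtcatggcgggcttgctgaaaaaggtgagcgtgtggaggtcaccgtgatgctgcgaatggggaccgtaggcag

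Values are FPKM, the authors' fragment numbers scaled to transcript length and to all mapped fragments, added up over each gene's transcripts. Differences are log2 ratios of FPKM + 1, ScxGFP-positive over ScxGFP-negative; the added 1 makes the difference of a gene at a low level look smaller. Genes that reached an FPKM of 1 in either library are called measured. *Scx* itself had 134 FPKM in positive and 1.69 FPKM in negative cells, as the labels have it. The FPKM of all transcripts summed to 161924 in positive and 220509 in negative cells, and 10752 and 11497 genes had an FPKM of at least 1 in them. Over the 12096 measured genes the median log2 ratio was −0.27, a 1.20-fold lower value in positive cells, so the members' differences are also given relative to that median. Aligned sequence on the members' transcripts came to 5.22 megabases in positive and 8.77 megabases in negative cells.

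The cells of the 2 libraries differed in kind as well as in the reporter. Summed over 8 tendon markers FPKM was 754 in positive and 114 in negative cells, and 7 of the 8 were at least 2-fold higher. Over 17 skeletal muscle markers it was 183 in positive and 25.1 in negative cells, with 12 of 14 measured at least 2-fold higher. Blood markers went the other way: 11 erythroid markers summed to 176 in positive and 9116 in negative cells (10 at least 2-fold lower), and 9 macrophage and leukocyte markers to 11.7 and 411 in the same order (9 lower). Epidermal markers summed to 12.3 in positive and 321 in negative cells (7 of 8 measured lower), endothelial markers to 3.05 and 47.9 (6 of 7 lower), and markers of Schwann cells and nerve to 3.02 and 33.6 (5 of 6 lower). Cartilage markers summed to 90.4 in positive and 68.1 in negative cells, and 0 of 5 measured differed 2-fold. Their directions were mixed. *Col2a1*, with 68.1 FPKM in positive and 40.4 FPKM in negative cells, made up most of the sum. *Col2a1* and *Matn1* were higher in positive cells, and *Sox9*, *Col9a1* and *Hapln1* were lower. No listed marker was at 0 in either library. The part of this mixture in the members' differences was not tested, and fewer cells of a type cannot be told apart from less RNA per cell in such bulk libraries.

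The members were broadly and modestly lower in ScxGFP-positive cells, and the extent depended on the scaling. Of the 85 members, 80 were measured. Their median log2 ratio was −0.59, a 1.51-fold lower value in positive cells, with quartiles of −0.79 and −0.45 and a range of −2.01 to 0.12. Relative to all measured genes the median was −0.33. On the deposited FPKM scale 79 of 80 members were below 0, against 73.8% of all measured genes; with values rescaled to TPM (each library's values set to one common sum) after transcripts shorter than 200 bases were left out, 46 of 83 were. Relative to the median of all genes, 74 of 80 members were below it.

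Few members passed a 2-fold difference. On the FPKM scale 0 of 80 were at least 2-fold higher, against a background of 4.03% of measured genes, and 4 (5%) were at least 2-fold lower, against 9.98%. The 4 were *Cox4i2*, *Cox6b2*, *Ndufs5* and *Uqcrq*. Relative to the median of all genes, 0 members were 2-fold higher, against 5.85% of genes, and *Cox4i2* alone was 2-fold lower, against 6.68%. Differences of the module were thus mostly under 2-fold, and the count of members past 2-fold did not exceed the background in either direction.

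**Figure D1:**
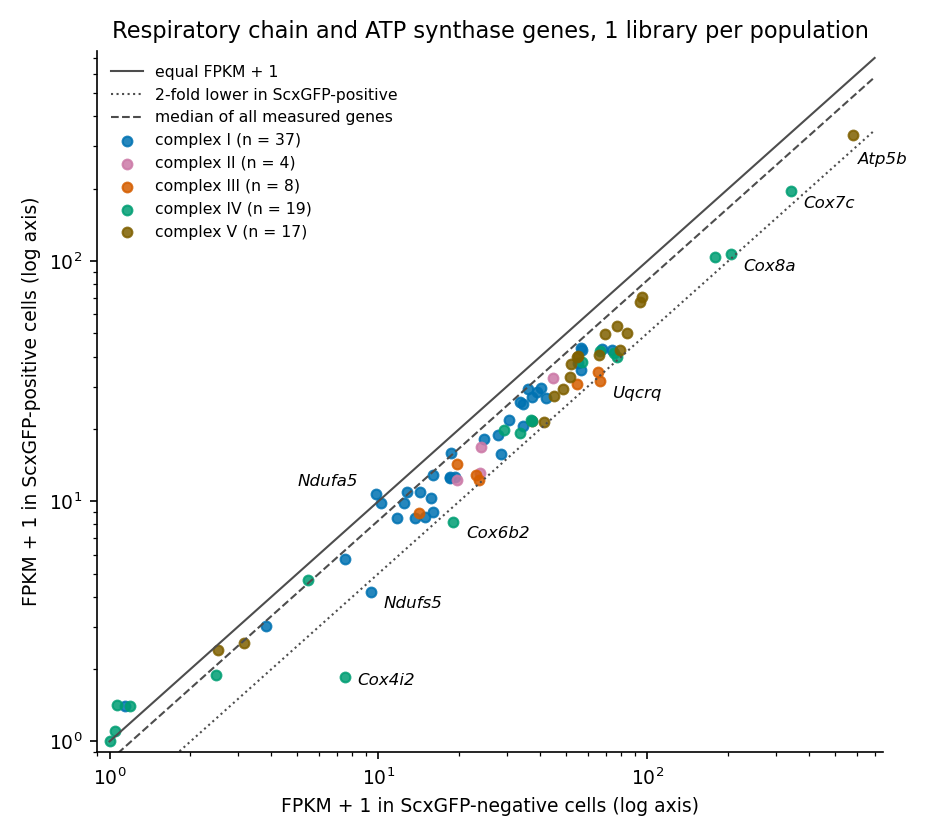
FPKM + 1 of each member in ScxGFP-positive cells (vertical, log axis) against ScxGFP-negative cells (horizontal, log axis), coloured by complex. Of the 80 measured members, 79 lie below the line of equal values on this scale, against 46 of 83 when scaled to TPM without transcripts shorter than 200 bases; *Cox4i2*, at 0.862 FPKM in positive and 6.51 FPKM in negative cells, lies farthest below the 2-fold line.

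Levels in the 2 libraries ran in nearly the same order of genes. Across the 80 measured members log2(FPKM + 1) correlated between the 2 libraries with a Pearson r of 0.98 (Spearman rho 0.98), a description over genes and not over samples. *Atp5b*, the catalytic beta subunit of ATP synthase, had the highest level, 335 FPKM in positive and 583 FPKM in negative cells. As a share of all summed FPKM, the members took 1.53% in positive and 1.83% in negative cells, a ratio of 0.837. By complex, these shares were 0.416% in positive and 0.446% in negative cells for complex I, 0.0437% and 0.0492% for complex II, and 0.0981% and 0.135% for complex III. They were 0.402% in positive and 0.526% in negative cells for complex IV and 0.572% and 0.674% for complex V. The share was thus lower in positive cells for every complex when all transcripts were in the sum. The ratios ran from 0.729 for complex III and 0.766 for complex IV to 0.932 for complex I. For all members the ratio was 0.910 without transcripts shorter than 200 bases and 0.792 without haemoglobin genes. Ratios by complex were not computed on these sums, so whether every complex stays lower there was not tested.

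The difference between libraries varied with transcript length, and the members are short: their median length was 679 bases, against 2752 for all measured genes. Among other genes the median log2 ratio was −0.69 at 400 to 600 bases (201 genes), −0.56 at 600 to 800 (308), −0.38 at 1000 to 1500 (1229), −0.27 at 2000 to 3000 (2746) and −0.14 above 5000 (1983). The median was thus lower the shorter the class, down to 400 bases. Below 200 bases, a class without members, the median was 0.20 (262 genes).

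Set beside genes of their own length, the members as a whole stood close to them. At 400 to 600 bases 32 members had a median of −0.69, the same as other genes to 2 decimals, and 3 of the 32 were at least 2-fold lower, against 26.9% of the other genes. Longer members lay below their length class: 15 members of 600 to 800 bases had a median of −0.68 (other genes −0.56), 13 of 1000 to 1500 bases −0.56 (other genes −0.38) and 6 of 1500 to 2000 bases −0.45 (other genes −0.35). When each member was compared with the median of other measured genes within 1.1-fold of its length, the median difference was −0.075, with 53 of 80 members below 0 and a range of −1.48 to 0.81. Against all genes the median difference was −0.33. Ribosomal protein genes, many of them short, were among the other genes of similar length. The cytosolic ones themselves had a median difference of −0.22 from other genes of their length. The closeness of the members is thus to a reference that holds such genes. Across members the log2 ratio correlated with log10 length at a Pearson r of 0.28 (Spearman rho 0.27, n = 80 genes sharing the same 2 libraries).

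**Figure D2:**
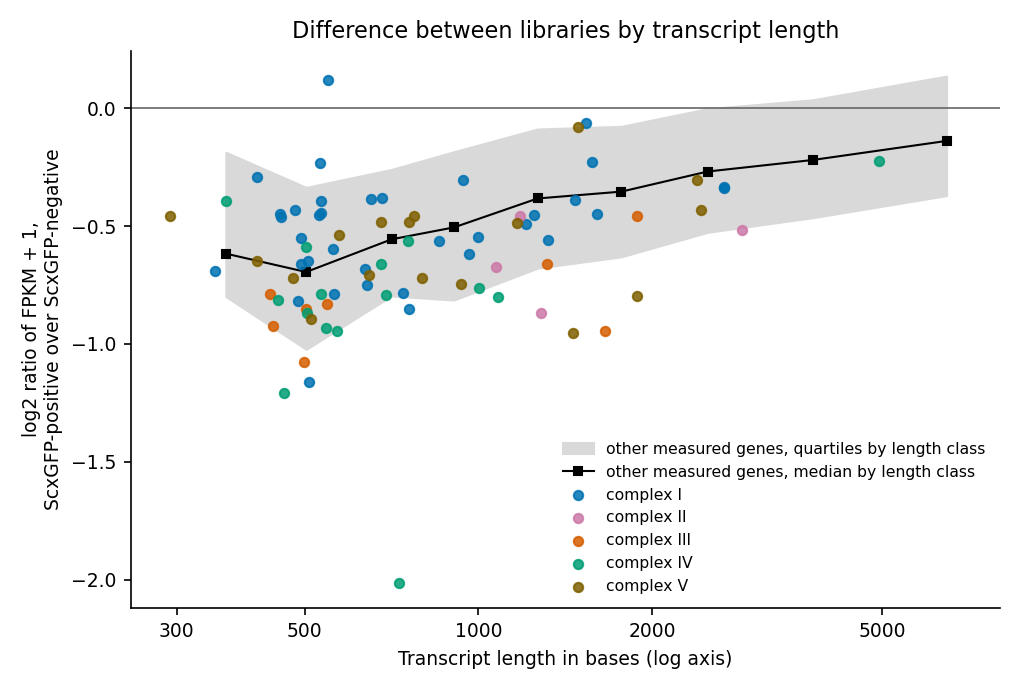
Log2 ratio of FPKM + 1, ScxGFP-positive over ScxGFP-negative, of each measured member (vertical) against transcript length in bases (horizontal, log axis), coloured by complex; squares join the medians of other measured genes by length class and the grey band spans their quartiles. Members of 400 to 600 bases centre on the same value as other genes (−0.69), and those of 1000 to 1500 bases centre at −0.56, against −0.38 for other genes.

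The complexes were not equally far from all genes, nor from genes of their length. Complex III had the lowest median log2 ratio, −0.84, against −0.68 for genes of similar length, and each of its 8 members was below its own length-matched value (median difference −0.19). Complex IV was at −0.79, against −0.65 for similar length (median difference −0.14, 13 of 15 members below). Complex II was at −0.60, against −0.40 for similar length (median difference −0.25, 4 of 4 below).

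The other complexes were nearer to their length class. Complex V was at −0.54, against −0.53 for similar length (median difference −0.064, 10 of 17 below). Complex I was at −0.46, against −0.59 for similar length (median difference 0.022, 18 of 36 below). With TPM and no transcripts shorter than 200 bases, the medians of complexes I and V were above 0, at 0.084 and 0.020, while the median of all genes was 0.23. Relative to the median of all genes, complex III was at −0.57, complex IV at −0.53, complex II at −0.33, complex V at −0.27 and complex I at −0.19, and this order also held under the 5 other scalings tried. Complexes II and V changed places under 3 other alternatives: with a pseudocount of 5, with a filter at an FPKM of 5, and without restricted isoforms, *Atp5s*, *Atp5sl* and *Cox7a2l*. In the last 2 of these complex V had a median log2 ratio of −0.65, against −0.60 for complex II. Whether complexes differ from each other cannot be tested with 1 library per population.

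**Figure D3:**
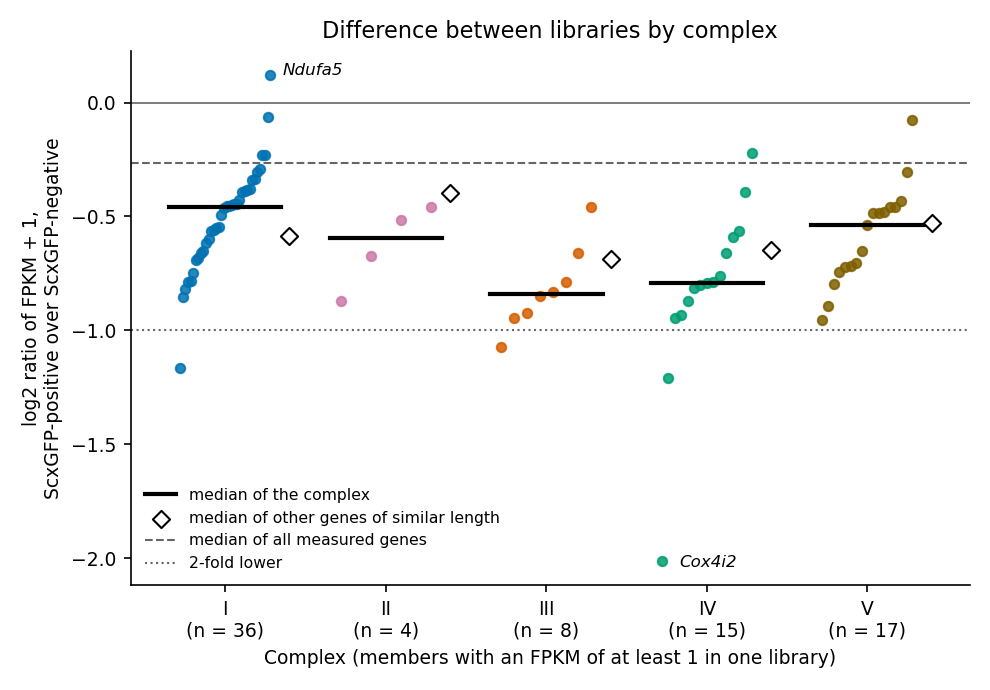
Log2 ratio of FPKM + 1, ScxGFP-positive over ScxGFP-negative, of the measured members of each complex, with the complex's median (bar) and the median of other genes of similar length (diamond). Complexes III (−0.84) and IV (−0.79) lie below their diamonds and complex I (−0.46) lies above its own (−0.59); with TPM and no transcripts shorter than 200 bases the medians of complexes I and V pass above 0.

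Complex I, NADH dehydrogenase, had 36 measured members, whose FPKM summed to 672 in positive and 983 in negative cells. The 7 measured core subunits, among them the carriers of the flavin and iron-sulphur centres, had a median log2 ratio of −0.39, against −0.35 for genes of similar length, and the 29 accessory subunits, mostly short, −0.49, against −0.67. *Ndufs7*, a core subunit that holds an iron-sulphur cluster next to the quinone site, had 14.8 FPKM in positive and 27.5 FPKM in negative cells (log2 ratio −0.85). *Ndufs8*, *Ndufv2*, *Ndufs1* and *Ndufs3*, further core subunits, lay between −0.62 and −0.31. *Ndufv1*, which binds NADH through its flavin, had 9.91 FPKM in positive and 11.8 FPKM in negative cells (−0.23). The core subunits of this enzyme thus spread over the whole interval between these values.

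Among accessory subunits of complex I the most abundant were *Ndufa12*, with 41.8 FPKM in positive and 72.8 FPKM in negative cells, *Ndufa1*, with 42.0 and 66.9, and *Ndufb9*, with 42.5 and 55.8 in the same order. They lay at −0.79, −0.66 and −0.38. *Ndufv3*, a small accessory subunit of the NADH-oxidising module, was at 8.06 FPKM in positive and 15.0 FPKM in negative cells (−0.82), and its transcripts disagreed. Transcript NM_001083891 (487 bases) had 3.18 FPKM in positive and 10.04 FPKM in negative cells, and NM_030087 (1579 bases) had 4.88 and 4.93. As the deposited values divide the reads, the difference of *Ndufv3* lay in the shorter form. How well reads were divided between these overlapping transcripts was not tested.

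At the other end of complex I, *Ndufs4* and *Ndufa5* had the ratios nearest to 0. *Ndufs4*, an accessory subunit needed for full assembly, had 8.78 FPKM in positive and 9.22 FPKM in negative cells (−0.063). *Ndufa5* (mm9 chr6:24468666-24477687), a subunit of the matrix arm, had 9.69 FPKM in positive and 8.83 FPKM in negative cells (0.12), 0.81 above genes of its length. The other measured members of complex I, apart from *Ndufs5*, lay between −0.78 and −0.23. *Ndufa4l2*, a hypoxia-induced relative of *Ndufa4*, was under the filter at 0.406 FPKM in positive and 0.138 FPKM in negative cells. *Ndufa4*, now often placed in complex IV, had 36.6 FPKM in positive and 54.2 FPKM in negative cells (−0.55).

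*Ndufs5*, an accessory subunit, was the 1 member of complex I past 2-fold, and that call rested on how reads were divided between overlapping rows. It had 3.20 FPKM in positive and 8.41 FPKM in negative cells (−1.16; mm9 chr4:123389953-123395429). A second symbol, *BC002163*, covers 99.5% of the same span and had 2.61 FPKM in positive and 0.00109 FPKM in negative cells, with its rows marked LOWDATA. Joined, the pair had 5.81 FPKM in positive and 8.41 FPKM in negative cells, a log2 ratio of −0.47. The members at least 2-fold lower then numbered 3.

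Complex II, succinate dehydrogenase, is wholly nuclear-encoded and also an enzyme of the citric acid cycle; its FPKM summed to 70.8 in positive and 108 in negative cells. *Sdhd*, a membrane anchor, had 12.1 FPKM in positive and 22.9 FPKM in negative cells (−0.87). *Sdhb*, the iron-sulphur subunit, had 11.3 FPKM in positive and 18.6 FPKM in negative cells (−0.68). *Sdha*, the flavoprotein, had 15.9 FPKM in positive and 23.1 FPKM in negative cells (−0.52). *Sdhc*, the other anchor, had 31.6 FPKM in positive and 43.7 FPKM in negative cells (−0.46), so the anchors bounded the range of the complex.

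Complex III, the cytochrome bc1 complex, was at 159 FPKM in positive and 297 FPKM in negative cells in sum, 53.5% of the negative value. *Uqcrq*, a small subunit next to cytochrome b, had 30.6 FPKM in positive and 65.6 FPKM in negative cells (−1.07; mm9 chr11:53242450-53244333), with a log2 difference of −0.34 from genes of its length. *Uqcrc1*, a core protein whose promoter window is printed above for its NRF1 letters, had 11.2 FPKM in positive and 22.6 FPKM in negative cells (−0.95; mm9 chr9:108838661-108851686). With 1656 bases its distance from genes of its length, −0.58, was larger than that of *Uqcrq*. *Uqcrc2*, the partner core protein, had 13.3 FPKM in positive and 18.7 FPKM in negative cells (−0.46), the smallest difference of the complex.

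The remaining subunits of complex III lay between. *Uqcr10* had 33.7 FPKM in positive and 64.7 FPKM in negative cells (−0.92), *Uqcrh*, the hinge protein that helps cytochrome c bind, 29.7 and 53.6 (−0.83), and *Uqcr11* 20.6 and 36.3 (−0.79). *Uqcrb* had 11.8 FPKM in positive and 22.1 FPKM in negative cells (−0.85), and the Rieske iron-sulphur protein *Uqcrfs1* 7.95 and 13.1 (−0.66). All 8 subunits were below the median of all genes, −0.27.

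Complex IV, cytochrome c oxidase, has several subunits with a second gene restricted to certain tissues, and the largest difference of the module was among these. *Cox4i2*, a form of subunit IV known from lung and induced by low oxygen, had 0.862 FPKM in positive and 6.51 FPKM in negative cells (mm9 chr2:152579909-152590773). The log2 ratio was −2.01, 4.03-fold lower, and −1.48 relative to genes of its length. These values rest on 1430.5 aligned bases in positive and 11302.8 in negative cells over 727 bases of transcript. *Cox4i1*, the common form, had 41.2 FPKM in positive and 65.7 FPKM in negative cells (−0.66). *Cox4i2* thus made up 2.05% of the pair's FPKM in positive and 9.02% in negative cells.

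*Cox6b2*, known as a testis form, was above the filter in both libraries. It had 7.22 FPKM in positive and 18.0 FPKM in negative cells (−1.21; mm9 chr7:4703397-4704504), against 40.2 FPKM in positive and 74.4 FPKM in negative cells for *Cox6b1* (−0.87). Its share of the pair was 15.2% in positive and 19.5% in negative cells. Both transcripts of *Cox6b2* were lower in positive cells, NM_183406 with 6.22 and 13.1 FPKM and NM_183405 with 1.002 and 4.94 FPKM in that order.

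Of the other restricted forms *Cox7a1* alone passed the filter. *Cox7a1*, the heart and muscle form, had 0.898 FPKM in positive and 1.49 FPKM in negative cells (−0.39), 4.54% of its FPKM with *Cox7a2* in positive and 5.001% in negative cells. *Cox6a2*, a heart and muscle form, had 0.421 FPKM in positive and 0.0634 FPKM in negative cells. *Cox8b*, another muscle form, had 0.405 FPKM in positive and 0.188 FPKM in negative cells. Muscle markers were also higher in positive cells, as given above; their part here was not tested. *Cox7b2* had 0.104 FPKM in positive and 0.0492 FPKM in negative cells, and *Cox8c* was listed at 0 in both. At most 633.9 aligned bases in a library lay behind any of these 4 unmeasured forms.

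The common subunits of complex IV lay close together. The 10 that are neither restricted forms, *Cox4nb* nor *Cox7a2l* lay between −0.94 and −0.56 with a median of −0.79, against −0.67 for genes of similar length, and 9 of 10 were below their own length-matched value. *Cox7c* had 194 FPKM in positive and 342 FPKM in negative cells (−0.81), *Cox8a* 106 and 203 (−0.93) and *Cox6a1* 103 and 178 (−0.79). These 3 small membrane subunits were the most abundant members after *Atp5b*. *Cox5b*, the zinc-binding subunit, had 39.0 FPKM in positive and 76.0 FPKM in negative cells (−0.94), the lowest ratio of the 10. *Cox7a2* had 18.9 FPKM in positive and 28.4 FPKM in negative cells (−0.56), the highest. *Cox7a2l*, a factor that joins complexes III and IV, had 18.3 FPKM in positive and 32.6 FPKM in negative cells (−0.80), and *Cox4nb* 3.68 and 4.46 (−0.22).

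Complex V, ATP synthase, was the most abundant complex, with 926 FPKM in positive and 1486 FPKM in negative cells in sum. The 5 subunits of its F1 head had a median of −0.65, against −0.42 for genes of similar length, and all 5 were below their length-matched values. *Atp5b* (mm9 chr10:127520363-127527444), with the values given above, was at −0.80, a difference of −0.47 from genes of its length. *Atp5a1*, the alpha subunit that alternates with beta in the head, had 69.9 FPKM in positive and 94.5 FPKM in negative cells (−0.43). *Atp5d*, *Atp5e* and *Atp5c1*, the delta, epsilon and gamma subunits of the central stalk, were at −0.74, −0.65 and −0.49.

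The c ring, which turns as protons pass, is built from 1 mature protein that 3 genes encode. *Atp5g1* had 26.3 FPKM in positive and 44.0 FPKM in negative cells (−0.72), *Atp5g2* 39.5 and 65.1 (−0.71) and *Atp5g3* 36.3 and 51.1 (−0.48). *Atp5g3* made up 35.5% of their FPKM in positive and 31.9% in negative cells, and *Atp5g2* 38.7% and 40.7%. The 2 transcripts of *Atp5g1* went opposite ways: NM_001161419 had 19.8 FPKM in positive and 12.2 FPKM in negative cells (0.66), NM_007506 6.56 and 31.8 (−2.12). Their lengths, 805 and 798 bases, are nearly equal, and the sum is the value used here. The division of reads between these 2 transcripts was not tested.

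The peripheral stalk and membrane subunits of complex V had a median of −0.54, against −0.55 for genes of similar length. *Atp5f1*, subunit b of the stalk, had 20.3 FPKM in positive and 40.3 FPKM in negative cells (−0.95), the lowest ratio of the complex. *Atp5l*, subunit g, had 41.5 FPKM in positive and 77.9 FPKM in negative cells (−0.89). *Atp5j*, coupling factor 6, the third most abundant gene of the complex, had 66.2 FPKM in positive and 93.0 FPKM in negative cells (−0.48). The remaining 4, *Atp5j2*, *Atp5h*, *Atp5k* and *Atp5o*, lay between −0.72 and −0.46. *Atp5sl* with 1.57 FPKM in positive and 2.17 FPKM in negative cells (−0.30) and *Atp5s* with 1.401 and 1.535 (−0.078) were at low levels.

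Reads of these genes can also match transcripts of other genes, such as processed copies or overlapping neighbours. Of the 85 members, 19 shared over 20% of their 50-base words with transcripts of other genes in GENCODE M21, and 38 shared none. Copies in the genome that are not annotated as transcripts were not searched. The largest shares among the 19 were those of *Atp5g2* (87.4%), *Atp5l* (84.9%), *Ndufa12* (53.8%), *Cox7c* (52.95%), *Atp5h* (50.5%) and *Atp5o* (50.3%). *Uqcrb* (43.4%), *Ndufs3* (39.7%) and *Atp5f1* (38.7%) were also among them. For *Atp5o* the main match was a second gene entry of the same symbol. The values of all 19 are less certain for this sharing, but how far it alters them was not tested. The median log2 ratio was −0.59 for the 19 and −0.60 for the 61 other measured members, so both classes had about the same median. Members whose promoter window held any of the 3 motifs (25 measured) had a median of −0.69 and a median difference from genes of similar length of −0.079. For the 42 measured members with a window and no motif these were −0.56 and −0.069.

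Other genes of the organelle were read from lists of known function, and each count of genes past 2-fold stands beside the 4.03% of all measured genes that were higher and the 9.98% that were lower. Carriers and subunits that the symbol rule misses had 0 of 9 measured past 2-fold and a median of −0.63, against −0.51 for genes of similar length. *Cycs*, somatic cytochrome c, had 5.80 FPKM in positive and 10.8 FPKM in negative cells, *Cyc1*, cytochrome c1 of complex III, 35.3 and 54.3, and *Atpif1*, the ATPase inhibitor, 88.4 and 158. *Usmg5* and *2010107E04Rik*, small subunits that copurify with ATP synthase, were at −0.76 and −0.84, and *Ndufab1*, the mitochondrial acyl carrier protein, at −0.35. *Etfa* and *Etfb*, the electron transfer flavoprotein, were at −0.57 and −0.63, and *Etfdh*, its dehydrogenase, had 7.68 FPKM in positive and 7.998 FPKM in negative cells (−0.051).

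The citric acid cycle list had 0 of 16 past 2-fold and a median of −0.50, against −0.27 for similar length. *Suclg2* had 6.15 FPKM in positive and 11.1 FPKM in negative cells (−0.76) and citrate synthase *Cs* 21.8 and 37.6 (−0.76), at one end, and *Dld* 17.7 and 20.8 (−0.22) and *Sucla2* 4.25 and 4.78 (−0.14) at the other. Of 31 measured assembly factors, whose list median was that of all genes (−0.27), 1 was at least 2-fold lower: *Cox17*, the copper chaperone of complex IV, with 13.3 FPKM in positive and 34.3 FPKM in negative cells (−1.30). *Sco2*, another copper chaperone, was at −0.75, and *Ttc19* and *Acad9*, which assist complexes III and I, were at 0.19 and 0.20. Genes of similar length had a median of −0.33 here.

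Among mitochondrial transporters 2 of 9 measured were at least 2-fold lower, both carriers of the inner membrane, against 9.98% of all measured genes. *Ucp2*, an uncoupling protein, had 4.82 FPKM in positive and 23.4 FPKM in negative cells (−2.07), and *Slc25a5*, an ADP/ATP carrier, 34.5 and 90.4 (−1.36). *Slc25a4*, the ADP/ATP carrier of heart and muscle, had 88.4 FPKM in positive and 102 FPKM in negative cells (−0.20). Of these 2 ADP/ATP carriers *Slc25a5* thus showed the larger difference. The phosphate carrier *Slc25a3* was at −0.63, the outer membrane channels *Vdac2*, *Vdac3* and *Vdac1* at −0.70, −0.50 and −0.42, and the pyruvate carrier genes *Brp44* and *Brp44l* at −0.15 and −0.070. *Slc25a31* was under the filter at 0.042 FPKM in positive and 0.079 FPKM in negative cells.

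Regulators of mitochondrial gene expression were at low levels and mostly near the median of all genes, with 0 higher and 1 of 14 measured at least 2-fold lower (median −0.29). That 1 was *Myc*, with 9.23 FPKM in positive and 20.1 FPKM in negative cells (−1.04). *Nrf1* had 6.04 FPKM in positive and 5.70 FPKM in negative cells (0.071), *Gabpa* 8.71 and 10.6 (−0.26) and *Yy1* 8.22 and 9.93 (−0.24). On the FPKM scale the transcripts of the 3 promoter factors named above thus differed little. Relative to the median of all genes *Nrf1* was at 0.34, *Gabpa* at 0.0086 and *Yy1* at 0.021. *Gabpb1*, *Pprc1*, *Tfb2m*, *Tfb1m*, *Tfam*, *Polrmt* and *Peo1* lay between −0.43 and −0.012. *Esrra*, *Polg2* and *Polg* were at −0.65, −0.65 and −0.59. The coactivators *Ppargc1a*, with 0.565 FPKM in positive and 0.361 FPKM in negative cells, and *Ppargc1b*, with 0.547 and 0.938, were under the filter.

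Lists of other widely expressed genes, many of them short, were set beside the members. With TPM and no transcripts shorter than 200 bases, the medians of 6 of the 9 lists were above 0 and all 9 were below the median of all genes, that of the assembly factors by the least (−0.0096). The 81 measured cytosolic ribosomal protein genes had a median of −0.74, against −0.51 for similar length, with 8 at least 2-fold lower, a share near the 9.98% of all measured genes. Among the 8 were *Rpl30* (8.82 FPKM in positive and 26.5 FPKM in negative cells) and *Rpl22l1* (16.9 and 41.7). *Rpl26* (9.94 and 9.997) and *Rpl7l1* (7.83 and 9.54) were at the other end. The 76 mitochondrial ribosomal protein genes had a median of −0.43, that of their length class, with 2 lower, *Mrps21* (21.5 FPKM in positive and 49.2 FPKM in negative cells) and *Mrpl44* (2.37 and 5.76), and *Mrpl1* (0.15) and *Mrpl21* (0.10) highest.

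The 20 measured import genes had a median of −0.64, against −0.41 for similar length. *Timm8a1* (3.09 FPKM in positive and 9.79 FPKM in negative cells) was 2-fold lower, *Tomm5* was at −0.95, and *Timm22* (−0.24) and *Timm17b* (0.082) were highest. The 39 measured proteasome genes had a median of −0.48, against −0.38, with 3 at least 2-fold lower, among them *Psmb8* (0.0849 FPKM in positive and 6.27 FPKM in negative cells) and *Psmb9* (0.387 and 7.85), subunits of the immunoproteasome known from immune cells. *Psmd9* (−0.13) and *Psmb11* (0.089) were highest. Without regard to length, complexes III (−0.84) and IV (−0.79) were below the median of each of these 4 lists. Complex I (−0.46) was within their range of −0.74 to −0.43. Against genes of similar length the order differed. The median difference was −0.25 for complex II, −0.22 for cytosolic ribosomal proteins, −0.19 for complex III, and −0.14 for both complex IV and import. It was −0.091 for the proteasome, −0.064 for complex V, −0.025 for mitochondrial ribosomal proteins and 0.022 for complex I. The references were not the same. Genes of similar length left out the members in each case, and for a list also its own genes. For the complexes they kept the ribosomal protein genes.

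**Figure D4:**
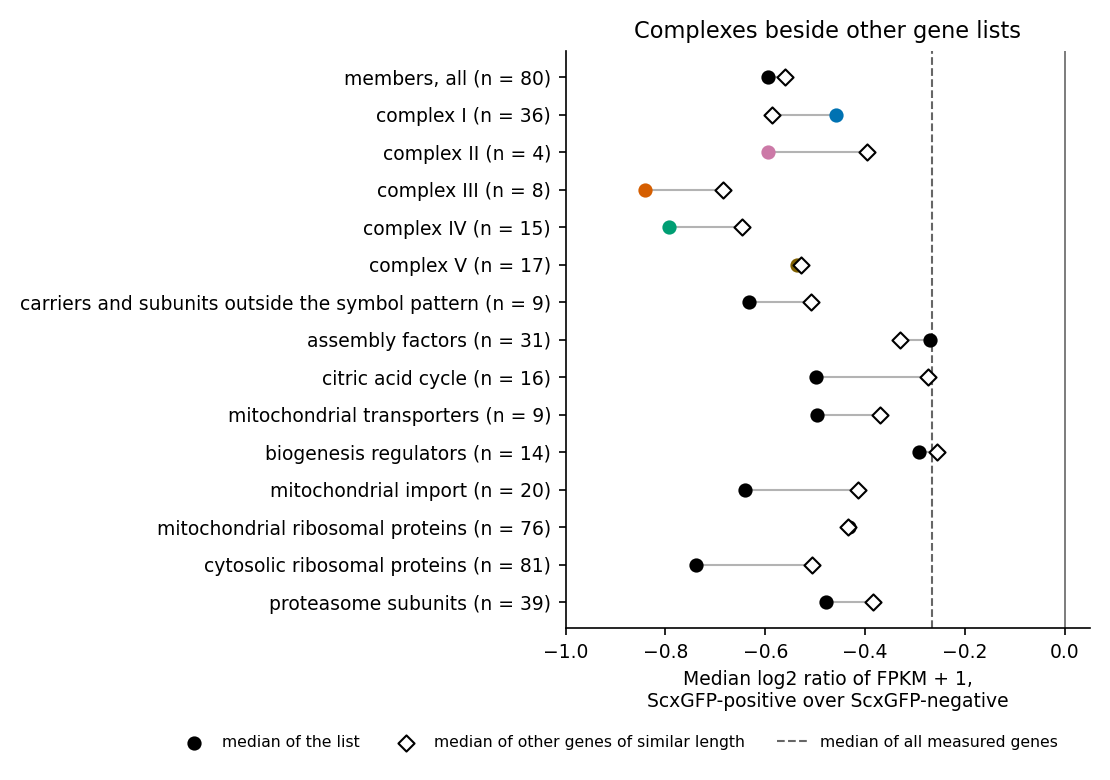
Median log2 ratio of FPKM + 1, ScxGFP-positive over ScxGFP-negative (horizontal), of the members, each complex and 9 other gene lists (filled), with the median of other genes of similar length (diamond). All medians are below 0 on the deposited FPKM scale, those of complexes I and V and of 6 lists passing above 0 with TPM and no transcripts shorter than 200 bases; cytosolic ribosomal proteins (−0.74) lie below their diamond (−0.51), as complexes III (−0.84 and −0.68) and IV (−0.79 and −0.65) do.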

How the data were processed

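The submitters' processing notes name TopHat 1.4.1, Bowtie 0.12.7 and the build mm9; for the abundance program a version is not given in the sources used. The deposited tables hold, per the file headers, a symbol, position, length, coverage, status and FPKM (the authors' fragment numbers scaled to transcript length and library) for RefSeq transcripts. The deposited coverage (a signal of aligned bases per transcript base) times length gave 0.687 gigabases on transcripts in the positive and 0.875 gigabases in the negative library. Total RNA was turned into cDNA with NuGEN's Ovation RNA-Seq v2 kit, per the labels.

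From these files FPKM was summed per symbol, leaving out symbols that had a failed row; all 94 member rows had status OK in both libraries. The difference was log2((FPKM positive + 1)/(FPKM negative + 1)), over genes that reached an FPKM of 1 in either library, and a call was a 2-fold difference. A gene's length is that of its transcript with the most FPKM. Positions in the files count from 0, so 1 was added to starts; promoter windows are of another build. Shared words were 50 bases long, since no label gives the read length. Known folds set on genes of the negative library were recovered by the ratio and length-matching steps, which checks their arithmetic alone. The groups came from the cell population in the labels. Alternatives changed pseudocount, filter, scaling (also to TPM), transcript choice, length window and membership. Named genes were the members past 2-fold, the isoform pairs, the 3 highest and 3 lowest ratios and the 3 highest FPKM of each complex, the 2 highest and 2 lowest ratios of each list, and all genes of the carrier, transporter and regulator lists. Others were named for their role. The values of 1 member are not reported here. Members, lists and subunit roles were chosen with earlier results of these data known; the printed promoters were chosen after values were seen. The transporter list holds 2 genes under both an older and a newer symbol, and the files use the older (*Brp44*, *Brp44l*). Of the listed assembly factors, 5 of 37 were not analysed here. Python 3.11.15, numpy 2.4.6, pandas 2.3.3, scipy 1.17.1 and matplotlib 3.10.9 were used.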

Additional observations from a re-analysis of the deposited data

How the results depend on the processing

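No paired analysis was possible because each population had 1 library. Differences relative to all genes were steadier than those on a scale: over the alternatives the members' median lay between −0.65 and −0.038, and relative to the median of all genes between −0.53 and −0.27. The median of all genes was −0.27 as reported, 0.12 with TPM (each library's values set to one common sum), 0.044 with these and no haemoglobin genes, 0.23 with these and no transcripts shorter than 200 bases, and −0.039 with equal upper quartiles. With no short transcripts the medians of complex I (0.084) and complex V (0.020) changed sign. Members at least 2-fold higher (0 as reported) were 2, 2 and 3 in these 3 scalings, all of them under the filter before (*Cox6a2*, *Ndufa4l2* and, in the third, *Cox8b*). Members at least 2-fold lower (4 as reported) were 1 in each of these scalings, with equal upper quartiles and with the median ratio set to 1, 0 with a pseudocount of 5, and 2 without restricted isoforms, *Atp5s*, *Atp5sl* and *Cox7a2l*, which leaves out 2 of the 4. They were 5 with a pseudocount of 0.1, adding *Uqcrc1*, and 5 with the transcript of most FPKM only, where *Atp5g1* and *Ndufv3* entered and *Cox6b2* left. *Cox4i2* remained 2-fold lower in 11 of 12 alternatives, *Uqcrq* in 6, and *Cox6b2* and *Ndufs5* in 5 each. The distance from genes of similar length was −0.56 with no filter, where unexpressed genes enter the comparison, and otherwise small, reaching −0.038. Alternatives chosen after seeing the data left out *Cox4nb* and *Ndufa4l2*, left out members sharing words, joined overlapping rows, or removed ribosomal protein genes from the genes of similar length. Precision is limited by 1 library each, and for genes near 1 FPKM by few aligned bases.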
